A study of Mus musculus with 23 samples.

Results

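The 8 chemokine receptor genes Ccr9, Ccr7, Ccr4, Ccr8, Ccr2, Cxcr4, Cxcr3 and Cxcr2 were followed by name among the 24475 genes of the expression table, across 23 libraries. The libraries came from 6 thymus samples of normal C57BL/6 mice, 14 spleens with WT T-ALL and 3 spleens with Notch3 KO T-ALL. T-ALL is T-cell acute lymphoblastic leukemia. In this model it arose in 6- to 8-week-old BALB/c recipients after a newborn thymus was placed under the kidney capsule. The recipients lacked Rag2 and Il2rg (Rag2-/-Il2rg-/-) and make no T, B or NK cells of their own. The donor thymus was wild type for WT T-ALL and, for Notch3 KO T-ALL, came from mice in which Notch3 was disrupted by insertion of β-galactosidase into the first coding exon. The study gives B6.SJL-Ptprca as the strain of thymus donors and names no separate strain for the Notch3 KO mice. Every T-ALL library was whole spleen, so host myeloid, erythroid and stromal cells contributed RNA beside the leukemic cells, and each tumor was a separate leukemia. The control animals' age was not given in the sources used here. Thymus and T-ALL differ in organ, in host strain and in the strain named for the thymus as well as in disease, and these cannot be told apart. The labels do not say whether the control samples came from separate mice, while the study's plot of expression in normal thymus shows a dot per mouse. If some libraries shared a mouse, the P-values of the comparisons with thymus measure a spread that is partly technical.

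Chemokine receptors are membrane receptors coupled to inhibitory G proteins that steer cells along gradients of small secreted proteins. During T-cell development CCR9 and CXCR4, receptors for CCL25 and CXCL12, bring progenitors into the thymus and hold developing thymocytes in the cortex. CCR7 and CCR4, receptors for CCL19 with CCL21 and for CCL17 with CCL22, draw positively selected cells into the medulla. CCR8, a receptor for CCL1 and CCL8, is carried by some late thymocytes and regulatory T cells. CXCR3, receptor for CXCL9 and CXCL10, marks effector T and NK cells, CCR2, receptor for CCL2, marks inflammatory monocytes, and CXCR2, receptor for CXCL1 and related chemokines, marks neutrophils.

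Values are log2(scaled RPKM + 1), called log2 values here. RPKM counts reads per kilobase of transcript relative to the reads of the library, and the upper quartile of each library was scaled to 10, so levels of different genes can be set side by side per transcript length. The offset of 1 makes differences understate the fold change of low genes. No counts were given, so the depth of a single library is unknown. Between 10154 and 11011 genes reached a scaled RPKM of 1 in a library. The libraries fell into 2 sets by the mean log2 value of Sco2 and Srsf4, which ran from 4.27 to 5.22 in set A and from 1.61 to 2.80 in set B. Set A held 2 thymus, 4 WT T-ALL and all 3 Notch3 KO T-ALL libraries, and set B held 4 thymus and 10 WT T-ALL libraries. The labels name no batch, so these sets were told apart from the values alone. Thymus 1 and 3 differed by a root mean square of 0.228 log2 units and thymus 2 and 4 by 0.197, against 0.311 to 0.607 for all other pairs of controls. WT T-ALL 110 stood apart with the highest neutrophil score of all libraries, 10.47, where a score is the mean log2 value of a list of marker genes. The Notch3 gene itself gave log2 values of 3.22, 2.59 and 3.74 in the 3 Notch3 KO T-ALL libraries, against 3.17 to 5.78 for WT T-ALL, with thymus at 2.62 to 4.29. The difference was -1.56 from WT T-ALL (SE 0.41, limma adjusted p = 0.101) and -0.12 from thymus (SE 0.45, 0.848). A gene-level value also counts exons outside the insertion, so it does not check the disruption.

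The labels were set against marker genes. The score of double-positive thymocyte genes (10 genes, among them Rag1, Cd4 and Cd8a) was between 7.80 and 8.20 in thymus. In the tumors it was lower, 4.04 to 6.36 for WT T-ALL and 4.43 to 6.67 for Notch3 KO T-ALL, and the 10 genes were each called lower in both comparisons, where 22.3% and 16.3% of all genes tested were called lower. Of 6 thymic epithelium genes Epcam was the highest in thymus, with log2 values of 2.16 to 2.43, and was called lower in WT T-ALL (-1.72, SE 0.27, limma adjusted p = 1.91e-05) and in Notch3 KO T-ALL (-1.17, SE 0.39, 0.0222). Krt8, Prss16 and Krt5 reached at most 1.18, 1.01 and 0.37, and the defining Foxn1 and Psmb11 at most 0.06 and 0.27. In the spleens the T-lineage score (7 genes such as Cd3e and Lck) was 6.92 to 8.0 with WT T-ALL and 7.10 to 7.53 with Notch3 KO T-ALL, against 7.97 to 8.23 in thymus. The neutrophil score was 1.82 to 3.55 in thymus and 4.07 to 10.47 in WT T-ALL, with no overlap, and was 6.92, 2.83 and 6.96 in the 3 Notch3 KO T-ALL libraries. In bulk tissue, fewer cells of a type and less RNA per cell cannot be told apart.

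In thymus the receptors fell into clear tiers of level. Ccr9 had a median scaled RPKM of 446 (325 to 529), above Cxcr4 with 152 (130 to 162), and these ranges did not overlap. Ccr7 with 32.2 (13.6 to 44.1) and Ccr4 with 19.7 (17.4 to 22.3) overlapped each other, and Ccr8 followed with 4.93 (2.07 to 5.55). Ccr2 with 1.70 (1.54 to 2.88), Cxcr3 with 0.856 (0.374 to 1.13) and Cxcr2 with 0.407 (0 to 0.612) were the lowest, each overlapping its neighbor except Ccr2 and Cxcr3. In WT T-ALL the order changed at the top, with Cxcr4 at a median of 105 (49.0 to 189) ahead of Ccr9 at 19.1 (0.746 to 133). Ccr4 at 13.6 (2.73 to 26.9) was the only other receptor with a median above 10 there, and the ranges of neighbors in the WT T-ALL order overlapped. Notch3 KO T-ALL had the same first 3 receptors, Cxcr4 at 111, Ccr9 at 63.8 and Ccr4 at 15.9.

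Compared with thymus, WT T-ALL had lower Ccr9, Ccr7, Ccr8 and Cxcr4 and higher Cxcr2, 5 calls among the 8 receptors. Cxcr2 entered the test only through the tumors in which it is high, so its call is a description. Ccr4, Ccr2 and Cxcr3 did not pass the test. At this threshold (limma, Benjamini-Hochberg adjusted p under 0.05 over 11919 genes) 51.6% of all genes tested were called, 29.3% as higher and 22.3% as lower, so a call is common in this comparison. The median difference of the 8 receptors was -0.55 on the log2 scale, against 0.08 over all genes tested. In Notch3 KO T-ALL 3 of the 8 receptors were called against thymus, all lower (Ccr9, Ccr7 and Ccr8), where 37.5% of genes were called, 21.2% as higher and 16.3% as lower. The median difference was -0.32 there, against 0.08 over all genes. Both comparisons share the same 6 controls. None of the 8 differed between Notch3 KO and WT T-ALL by limma, where 0.617% of 11677 genes were called, 0.591% as higher and 0.0257% as lower. By limma 0 of the 8 had an unadjusted p under 0.05 in that comparison, and by the exact permutation test 0 as well.

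**Figure D1:**
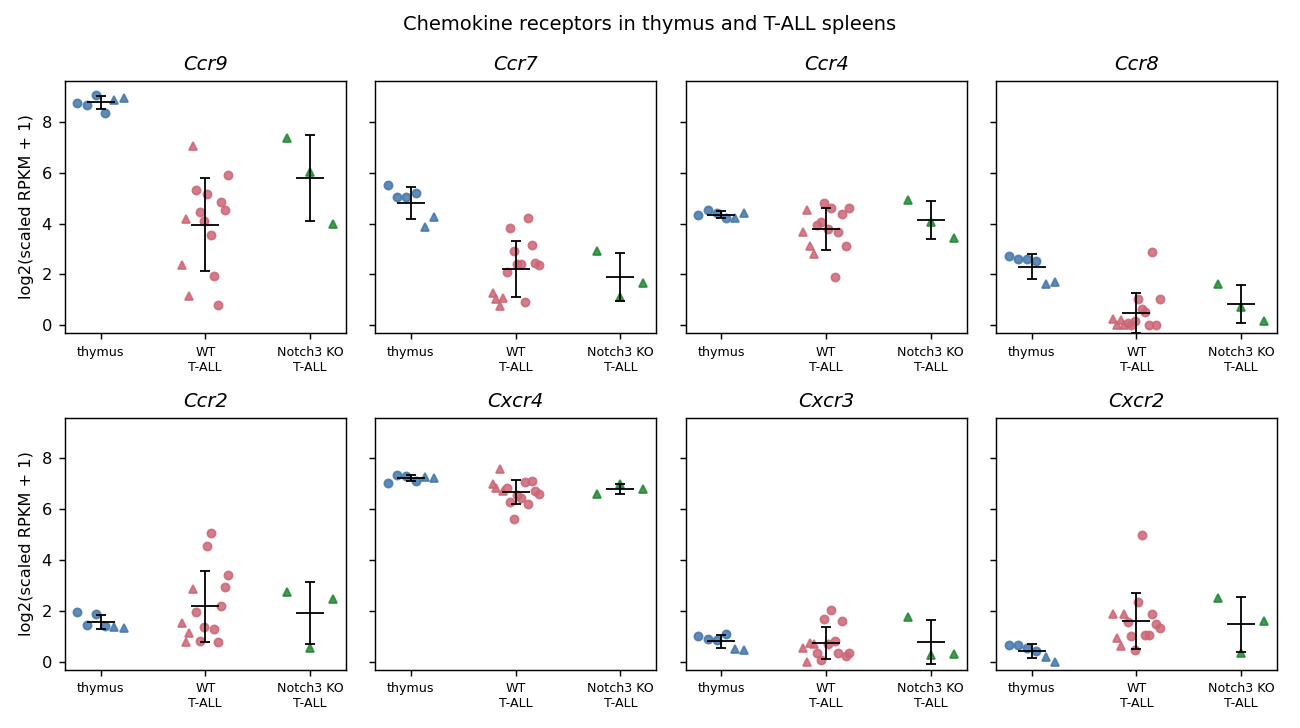
Log2 values, log2(scaled RPKM + 1), of the 8 receptors in every library of the 3 groups. Circles are libraries of set B and triangles libraries of set A, and the black bars are group means with SD. Ccr9 lies between 8.35 and 9.05 in thymus and between 0.80 and 7.06 in WT T-ALL.

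Ccr9 showed the largest difference among the receptors between WT T-ALL and thymus, while in Notch3 KO T-ALL it was close to that of Ccr7 and, with an offset of 0.1, smaller (-3.01 against -3.35). The gene (gene 12769) lies on chromosome 9 from 123767211 to 123783457 (GRCm38.p6). Its promoter window, the 250 bases before the RefSeq start, is shown beside those of Ccr8, which was also lower, and Cxcr4, which had the highest median of the receptors in both tumor groups. Capitals mark every match to CANNTG, the E-box bound by E proteins of thymocytes.
Ccr9 (chr9:123766961-123767210, plus strand): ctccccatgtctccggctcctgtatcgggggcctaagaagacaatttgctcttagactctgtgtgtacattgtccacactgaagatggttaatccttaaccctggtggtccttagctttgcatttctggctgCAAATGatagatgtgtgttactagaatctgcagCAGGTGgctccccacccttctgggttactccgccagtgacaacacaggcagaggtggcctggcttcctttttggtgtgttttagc
Ccr8 (chr9:120091883-120092132, plus strand): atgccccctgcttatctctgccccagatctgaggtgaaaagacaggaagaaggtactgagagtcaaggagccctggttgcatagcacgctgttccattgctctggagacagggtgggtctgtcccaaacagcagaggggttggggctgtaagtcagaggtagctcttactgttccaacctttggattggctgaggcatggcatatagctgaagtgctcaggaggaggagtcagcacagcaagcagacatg
Cxcr4 (chr1:128592300-128592549, minus strand): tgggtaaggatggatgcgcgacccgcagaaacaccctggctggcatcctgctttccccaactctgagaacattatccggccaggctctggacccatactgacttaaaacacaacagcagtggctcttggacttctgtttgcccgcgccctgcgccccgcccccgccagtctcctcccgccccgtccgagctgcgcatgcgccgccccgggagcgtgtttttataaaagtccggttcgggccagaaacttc
The windows are from RefSeq on GRCm38.p6, which had an entry for 7 of the 8 receptors. Ccr7 had none. The Ccr9 window held 2 matches to CANNTG, at 118 and 85 bases before the start, and the second was also a CAGGTG. The windows of Ccr8 and Cxcr4 held none, but those of Ccr4, Ccr2, Cxcr3 and Cxcr2 did, so 5 of 7 receptor windows held a CANNTG and 4 of 7 the CAGGTG form. Among all 32851 windows of this length, read on both strands, 66.2% held a CANNTG and 17.2% held the CAGGTG form. The core read by the Notch partner RBPJ (TGGGAA) was in none of these 3 windows, in 1 of the 7 receptor windows (that of Cxcr2) and in 21.6% of all windows. A match is a description of the letters, not of binding.

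In thymus the lowest Ccr9 log2 value was 8.35, the median 8.80 and the highest 9.05. The WT T-ALL libraries ran from 0.80 through a median of 4.32 to 7.06, and the Notch3 KO T-ALL libraries had 7.36, 6.02 and 4.00. No tumor reached the lowest thymus sample. In scaled RPKM the means were 439 ± 72.6 (SD, n = 6) for thymus, 27.9 ± 34.5 (SD, n = 14) for WT tumors and 80.8 ± 75.7 (SD, n = 3) for Notch3 KO tumors. Ccr9 fell in WT T-ALL, with a difference of -4.80 log2 units (SE 0.71, 95% interval -6.27 to -3.34, adjusted p = 9.27e-06). The decrease was -5.20 (SE 1.39, adjusted p = 0.0438) within set A and -4.63 (SE 0.73, 0.00019) within set B. In Notch3 KO T-ALL the difference was -2.97 (SE 1.02, -5.09 to -0.86, adjusted p = 0.0258), and -3.11 (SE 0.89, 0.0411) within set A. This call rested on Notch3 KO T-ALL 3, since without it the difference was -2.08 (SE 1.15, adjusted p = 0.195). With the library set as a covariate it was -2.85 (adjusted p = 0.0519), and with thymus 1 and 3 and thymus 2 and 4 averaged -3.01 (0.0515). With each library shifted by its T-lineage score it was -2.23 (adjusted p = 0.0741).

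The tumors differed more in Ccr9 than in any other receptor. Its SD over the 14 WT T-ALL libraries was 1.81 log2 units, larger than that of 99.4% of the 11677 genes tested between the tumor groups, whose median SD was 0.41. WT T-ALL 7, at a log2 value of 7.06, and WT T-ALL 202, at 5.92, kept the most. WT T-ALL 120 at 0.80, WT T-ALL 5 at 1.17 and WT T-ALL 111 at 1.95 had the least. Notch3 KO T-ALL 1, at 7.36, was the one Notch3 KO tumor above every WT T-ALL library. The relation of Ccr9 to the double-positive thymocyte score did not pass the test, with r = 0.33 (permutation p = 0.255, adjusted 0.53) and Spearman's rho = 0.20 (0.493, adjusted 0.764) over the 14 WT T-ALL libraries. It was 0.26 without WT T-ALL 3 and 110 and 0.43 in set B.

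Ccr7 (gene 12775, chromosome 11, 99144199 to 99155077), the receptor that draws selected thymocytes to the medulla and T cells to lymph nodes, was lower in both tumor groups. Thymus ran from 3.87 through a median of 5.05 to 5.5. WT T-ALL ran from 0.75 through 2.39 to 4.22, and Notch3 KO T-ALL had 2.94, 1.10 and 1.66. All tumors but WT T-ALL 120 were below every control, and that library, which had the lowest Ccr9, had the highest Ccr7. The difference was -2.61 (SE 0.45, 95% interval -3.54 to -1.68, adjusted p = 5.55e-05) in WT T-ALL and -2.92 (SE 0.65, -4.26 to -1.58, 0.00132) in Notch3 KO T-ALL. Levels of Ccr7 also differed between the library sets. Within WT T-ALL it ran from 0.75 to 1.28 in set A and from 0.90 to 4.22 in set B, and within thymus from 3.87 to 4.24 in set A and from 5.04 to 5.5 in set B. The decrease in WT T-ALL was -3.02 (SE 0.29, adjusted p = 0.00424) within set A and -2.52 (SE 0.43, 0.000381) within set B, and in Notch3 KO T-ALL it was -2.15 (SE 0.53, 0.0274) within set A. With the library set as a covariate it was -2.68 (SE 0.33, adjusted p = 1.09e-06) in WT T-ALL and -1.93 (SE 0.53, 0.0063) in Notch3 KO T-ALL. The 2 thymus libraries of set A were also lower in the neutrophil score (1.82 and 1.94 against 2.92 to 3.55) and the monocyte and macrophage score (1.49 and 1.65 against 2.54 to 2.93). With both scores as covariates Ccr7 differed from thymus by -3.32 (SE 0.61, adjusted p = 0.00036) in WT T-ALL and by -3.16 (SE 0.76, 0.00447) in Notch3 KO T-ALL. The neutrophil score of WT T-ALL, 4.07 to 10.47, did not overlap that of thymus, so this fit extrapolates. The part of myeloid cells in the Ccr7 difference was not tested.

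Ccr8 (gene 12776, chromosome 9, 120092133 to 120094906), a receptor of late thymocytes and regulatory T cells, was close to absent in most tumors. Thymus ran from 1.62 through 2.57 to 2.71. In WT T-ALL the lowest log2 value was 0, the median 0.21 and the highest 2.88, and Notch3 KO T-ALL had 1.62, 0.74 and 0.16. It was listed at 0 in 4 WT T-ALL libraries. WT T-ALL 126 was the one tumor above every thymus sample, and the next WT T-ALL libraries were 202 at 1.05 and 108 at 1.02. Ccr8 fell in WT T-ALL by 1.81 on the log2 scale (SE 0.33, adjusted p = 9.38e-05). Within set B the difference was -1.97 (SE 0.41, adjusted p = 0.00166), and in set A the gene did not pass the filter on low values. In Notch3 KO T-ALL the difference was -1.46 (SE 0.48, adjusted p = 0.0188), but -0.83 (SE 0.45, 0.193) within set A. Without Notch3 KO T-ALL 2 it was -1.41 (adjusted p = 0.0527), and leaving out library 3 of that group gave -1.12 (0.136). With the library set as a covariate it was -1.02 (adjusted p = 0.0976), and with the similar thymus samples averaged -1.30 (0.0636). It was also not called after the T-lineage shift (-0.72, adjusted p = 0.236) or with an offset of 0.1 in place of 1 (-2.47, 0.0623). That offset gave -3.635 (SE 0.72, adjusted p = 0.000202) in WT T-ALL. Of the 5 regulatory T cell genes listed, Tnfrsf18 (-1.47, adjusted p = 0.000244) and Tnfrsf4 (-1.41, 0.00143) were lower in WT T-ALL, Ikzf2 was higher (0.795, 0.0163), and Ctla4 (0.90, 0.201) was not called. The defining factor Foxp3 did not pass the filter on low values, with log2 values of 0.60 to 1.27 in thymus and 0 to 0.24 in WT T-ALL.

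Ccr4 (gene 12773, chromosome 9, 114490316 to 114505476), another receptor for entry into the medulla, did not pass the test in any comparison. Thymus samples were close together, from 4.20 through 4.37 to 4.54. WT T-ALL spread more widely, from 1.90 through 3.87 to 4.80, and Notch3 KO T-ALL had 4.92, 4.08 and 3.42. Of the 14 WT T-ALL libraries 9 were below and 3 above every control. The difference was -0.57 in WT T-ALL (SE 0.32, 95% interval -1.24 to 0.10, adjusted p = 0.146) and -0.22 in Notch3 KO T-ALL (SE 0.47, -1.19 to 0.75, 0.741). The lowest library was WT T-ALL 111, which was also among the 3 lowest in Ccr9.

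Cxcr4 (gene 12767, chromosome 1, 128588199 to 128592299), which holds progenitors and cortical thymocytes near CXCL12, stayed high in every tumor. Thymus ran from 7.04 through 7.25 to 7.34, WT T-ALL from 5.64 through 6.73 to 7.57, and Notch3 KO T-ALL had 6.60, 7.01 and 6.81. WT T-ALL 5 was above every control, 11 of the 14 were below every control, and all 3 Notch3 KO libraries were below. The difference in WT T-ALL was -0.54 (SE 0.18, 95% interval -0.91 to -0.16, adjusted p = 0.0182), the smallest of the 5 called. It was -0.45 (adjusted p = 0.216) with the neutrophil and the monocyte and macrophage scores as covariates, and -0.02 (0.987) with the erythroid score. The neutrophil and erythroid scores did not overlap between thymus and WT T-ALL, so both fits extrapolate. It was -0.54 (adjusted p = 0.0528) with the similar thymus samples averaged and -0.11 (0.682) with the sample number as a block. When each library was shifted by its T-lineage score it was 0.07 (SE 0.23, adjusted p = 0.788). That shift raised the median difference over all genes to 0.69 in WT T-ALL and 0.82 in Notch3 KO T-ALL. Within set B the unshifted difference was -0.66 (SE 0.22, adjusted p = 0.0235), and within set A it was -0.22 (SE 0.28, 0.619). For Notch3 KO T-ALL it was -0.42 (SE 0.27, -0.97 to 0.13, adjusted p = 0.22), and 0.32 (SE 0.33, 0.42) after the T-lineage shift. It was called by the exact permutation test at an adjusted p of 0.031, the smallest of any gene with the 84 splits of that test. A limma fit of Notch3 KO T-ALL and thymus alone also called it (SE 0.155, adjusted p = 0.0411). Quantile normalization of the log2 values gave -0.77 (SE 0.29, adjusted p = 0.0397) there and -0.84 (SE 0.20, 0.00125) in WT T-ALL. Its SD among WT T-ALL libraries, 0.46, exceeded that of 60.5% of genes, the lowest rank among the 8 receptors.

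**Figure D2:**
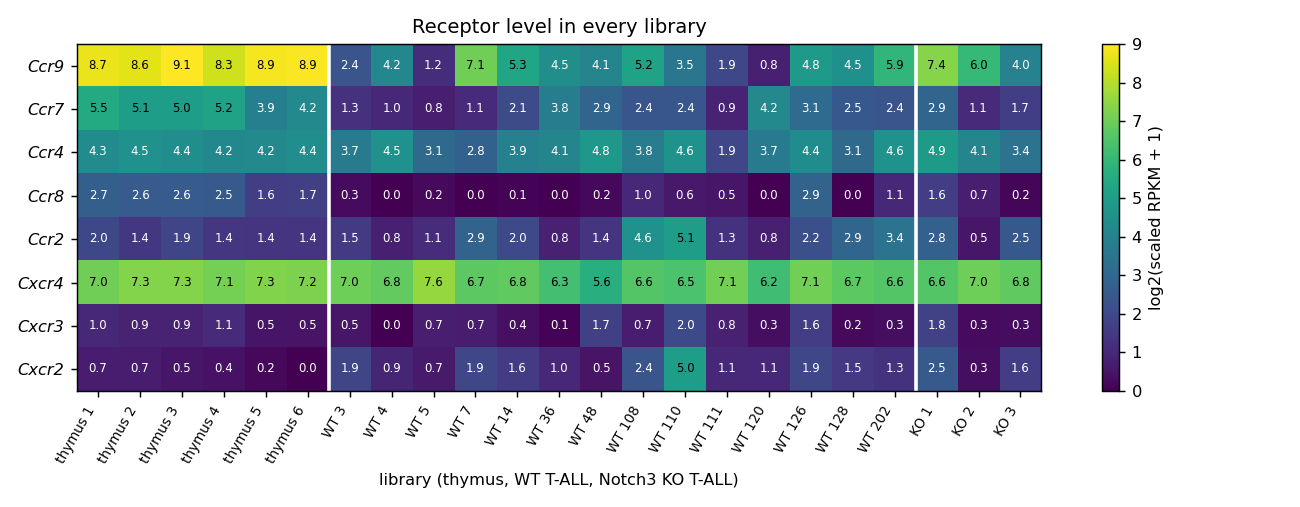
Log2 value of each receptor (rows) in each library (columns; WT and KO stand for WT T-ALL and Notch3 KO T-ALL), with the value printed in each cell. Cxcr4 lies between 5.64 and 7.57 in all tumors, while Ccr9 varies from 0.80 to 7.36 and Ccr2 and Cxcr2 are highest in WT T-ALL 110.

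The remaining 3 receptors belong mainly to effector and myeloid cells and were low in thymus. Cxcr3 (gene 12766, chromosome X, 101731535 to 101734147) ran from 0.46 through 0.89 to 1.09 in thymus and from 0 through 0.64 to 2.03 in WT T-ALL, and was 1.77, 0.26 and 0.30 in Notch3 KO T-ALL. Only WT T-ALL 110, 48 and 126 and Notch3 KO T-ALL 1 were above every control. The differences from thymus were -0.08 in WT T-ALL (SE 0.28, 95% interval -0.64 to 0.49, adjusted p = 0.834) and -0.03 in Notch3 KO T-ALL (SE 0.40, -0.85 to 0.79, 0.958).

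Ccr2 (gene 12772, chromosome 9, 124101918 to 124109140) ran from 1.35 through 1.43 to 1.96 in thymus. In WT T-ALL it ran from 0.79 through 1.75 to 5.06, and Notch3 KO T-ALL had 2.76, 0.54 and 2.48. Of the WT T-ALL libraries 7 were above and 5 below every control, so the tumors lay on both sides of thymus. The highest were WT T-ALL 110 at 5.06 and WT T-ALL 108 at 4.57, with WT T-ALL 202 next at 3.43. The difference was 0.64 in WT T-ALL (SE 0.55, -0.49 to 1.76, adjusted p = 0.335) and 0.36 in Notch3 KO T-ALL (SE 0.79, -1.27 to 1.99, 0.745). Without WT T-ALL 108 and 110 that of WT T-ALL was 0.20 (SE 0.38, adjusted p = 0.68). With the neutrophil score and the monocyte and macrophage score as covariates the difference was -1.12 (SE 0.35, adjusted p = 0.0211) in WT T-ALL and -1.83 (SE 0.44, 0.00445) in Notch3 KO T-ALL. The neutrophil score was at most 3.55 in thymus and at least 4.07 in WT T-ALL, so this fit extrapolates. Ccr2 itself rose with the monocyte and macrophage score across WT T-ALL (r = 0.93). Whether myeloid content accounts for its level was not tested.

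Cxcr2 (gene 12765, chromosome 1, 74153994 to 74161246) was the one receptor higher in WT T-ALL. It ran from 0 through 0.49 to 0.69 in thymus, where no sample reached a scaled RPKM of 1, so it entered the test through the tumors. WT T-ALL ran from 0.46 through 1.41 to 5.00, with 12 of 14 above every control, and Notch3 KO T-ALL had 2.50, 0.34 and 1.62. As a description, the difference in WT T-ALL was 1.19 (SE 0.44, 95% interval 0.28 to 2.10, adjusted p = 0.0278). It was not called without thymus 5 (1.14, SE 0.48, adjusted p = 0.0556) or without thymus 6 (1.10, SE 0.48, 0.0642), nor within set B (1.14, SE 0.585, adjusted p = 0.126) or with the similar thymus samples averaged (1.27, SE 0.54, 0.0608). With an offset of 0.1 it was 2.325 (SE 0.65, adjusted p = 0.00439). With the neutrophil and the monocyte and macrophage scores as covariates it was -0.62 (SE 0.30, adjusted p = 0.127). That fit extrapolates, since the neutrophil score did not overlap between thymus and WT T-ALL. For Notch3 KO tumors the difference was 1.06 (SE 0.64, -0.26 to 2.38, adjusted p = 0.197). It was called after the T-lineage shift (1.80, SE 0.74, adjusted p = 0.0418) and without WT T-ALL 110, which left the value and lowered its SE to 0.39 (adjusted p = 0.0351). Leaving out Notch3 KO T-ALL 1 gave 0.56 (adjusted p = 0.6), and leaving out library 2 of that group gave 1.63 (0.077).

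**Figure D3:**
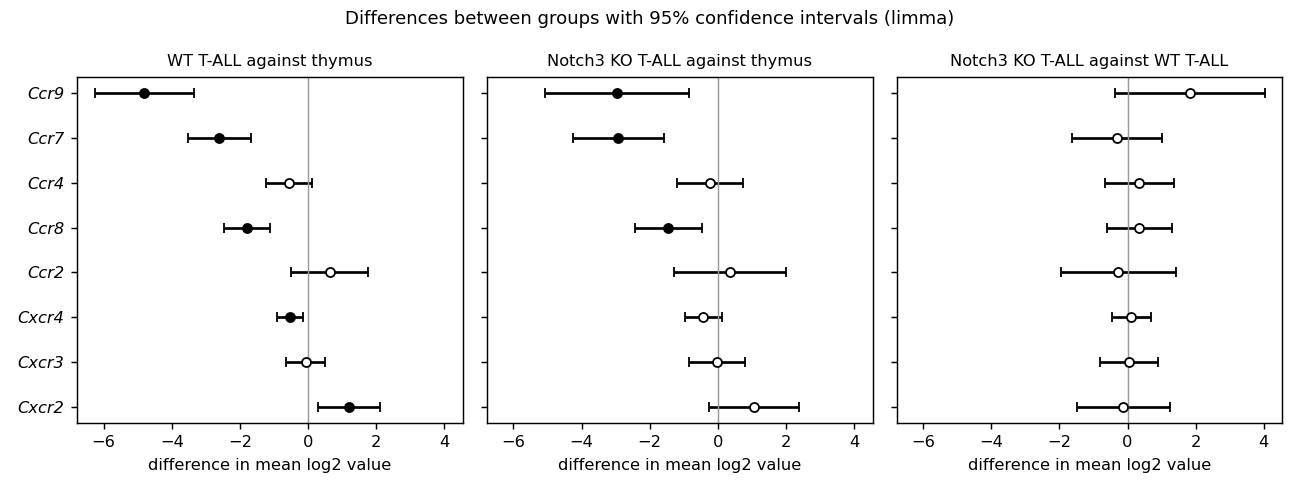
Difference in mean log2 value (x axis) of each receptor for the 3 comparisons, with 95% confidence intervals from limma. Filled points passed an adjusted p of 0.05 over all genes tested. Ccr9, Ccr7 and Ccr8 are filled in both comparisons with thymus, and no point is filled between the tumor groups.

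Between the tumor groups Ccr9 had the largest difference, 1.83 log2 units higher in Notch3 KO T-ALL (SE 1.05, 95% interval -0.37 to 4.03, adjusted p = 0.741). It was 1.05 without Notch3 KO T-ALL 1 and 2.73 when library 3 of that group was left out, the range over all libraries left out singly, and was not called in any of these fits (adjusted p 0.544 to 0.979). The other receptors differed by -0.31 (Ccr7) to 0.35 (Ccr4 and Ccr8), with intervals that included 0. With 3 Notch3 KO tumors these intervals are wide. That of Cxcr4 was -0.45 to 0.68 and that of Ccr2 -1.97 to 1.41. All Notch3 KO libraries were of set A, and within that set Ccr9 differed by 2.09 (SE 1.36, adjusted p = 0.671) and Ccr7 by 0.87 (SE 0.43, 0.53), against -0.31 for Ccr7 over all tumors. The erythroid score, which was 5.61, 7.31 and 7.00 in Notch3 KO T-ALL and ran from 3.19 to 6.51 in WT T-ALL, moved with the groups. With it as a covariate Ccr9 differed by 2.27 (SE 1.40) and Ccr7 by -0.79 (SE 0.83), each with an adjusted p of 1.

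Across the 14 WT T-ALL libraries the 8 receptors were set against 6 marker scores, and 6 of the 48 relations had an adjusted permutation p under 0.05. Ccr2 rose with the monocyte and macrophage score, with Pearson's r = 0.93 and Spearman's rho = 0.93 (permutation p = 1e-05 for both, the smallest that 100000 resamples can give, adjusted p = 0.00048). The value was 0.83 without the 2 libraries farthest from the median score, WT T-ALL 108 and 110, and 0.97 over the 10 libraries of set B. Cxcr2 rose with the neutrophil score, with r = 0.91 (permutation p = 2e-05, adjusted 0.00048) and rho = 0.87 (0.00012, adjusted 0.00192), 0.77 without those libraries and 0.94 in set B. The 4 WT T-ALL libraries of set A were too few for a value.

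Each of these receptors also followed the other myeloid score. Ccr2 had r = 0.85 with the neutrophil score (permutation p = 0.00016, adjusted 0.00256, rho = 0.87 with p = 7e-05, adjusted 0.00168, 0.59 without WT T-ALL 108 and 110, 0.90 in set B). Cxcr2 had r = 0.76 with the monocyte and macrophage score (permutation p = 0.00024, adjusted 0.00288, rho = 0.77 with p = 0.00224, adjusted 0.0269, 0.55 without those libraries, 0.75 in set B). Without WT T-ALL 110 alone this last relation was 0.70 (adjusted p = 0.0755). Cxcr3 followed the NK and cytotoxic score, with r = 0.83 (permutation p = 0.00051, adjusted 0.0049) and rho = 0.70 (0.0078, adjusted 0.0749). This was 0.56 without WT T-ALL 48 and 110 and 0.84 in set B. Of that list, the NK-defining gene Ncr1 was near 0 in the tumors, with log2 values up to 0.08 in WT T-ALL, while Gzma ran from 8.54 to 10.84. Cxcr2 also fell with the double-positive thymocyte score, with r = -0.70 (permutation p = 0.00394, adjusted 0.0315) and rho = -0.67 (0.0112, adjusted 0.0893), -0.75 in set B. It was -0.41 without WT T-ALL 3 and 110 and -0.48 (adjusted p = 0.64) without WT T-ALL 110 alone, so it rests on that library.

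**Figure D4:**
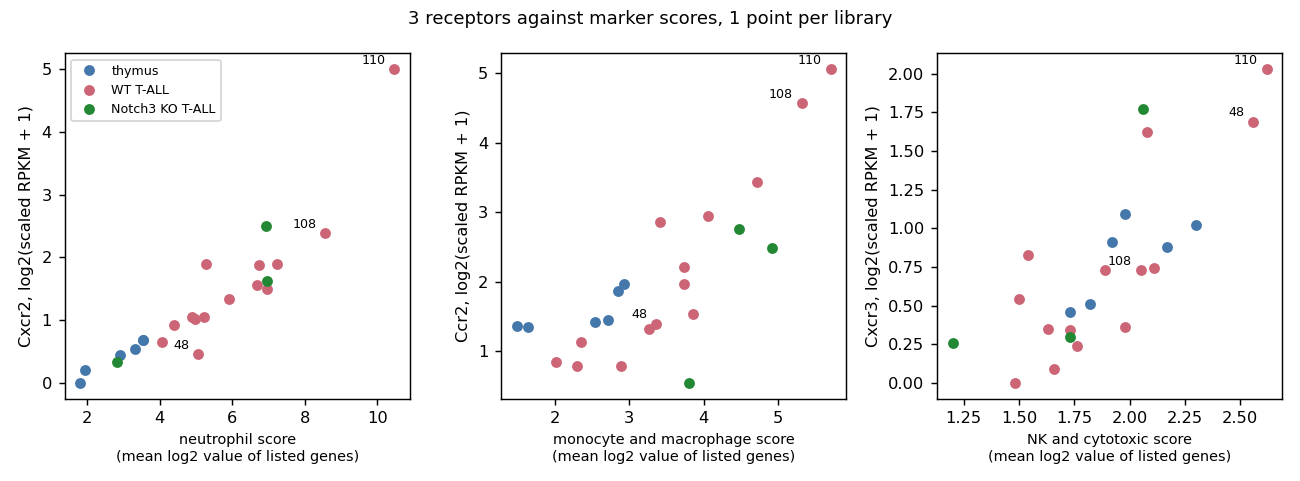
Log2 values of Cxcr2, Ccr2 and Cxcr3 (y axes) against the neutrophil, the monocyte and macrophage, and the NK and cytotoxic score (x axes, mean log2 value of the listed genes), 1 point per library. WT T-ALL 110 is the highest point in all 3 panels, and Notch3 KO T-ALL 2, with a neutrophil score of 2.83, has a Cxcr2 value of 0.34.

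Of the 28 pairs of receptors, 1 passed the threshold across WT T-ALL. Tumors high in Ccr2 were high in Cxcr2, with r = 0.80 (permutation p = 0.00029, adjusted 0.00812) and rho = 0.78 (0.00149, adjusted 0.0417), 0.58 without the 2 farthest libraries and 0.80 in set B. Without WT T-ALL 110 it was 0.73 (adjusted p = 0.136). Ccr7 and Cxcr4 had the strongest inverse relation, r = -0.66 and rho = -0.66 (permutation p = 0.00938 and 0.0127, adjusted 0.131 and 0.178), which did not pass. It was -0.67 without the 2 farthest libraries and -0.52 in set B. Ccr9 and Ccr7, both lower than in thymus, showed no relation past the threshold among the tumors, with r = 0.01 (permutation p = 0.971, adjusted 0.985), rho = 0.06 (0.843, adjusted 0.953), 0.20 without the 2 farthest libraries and -0.15 in set B.

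**Figure D5:**
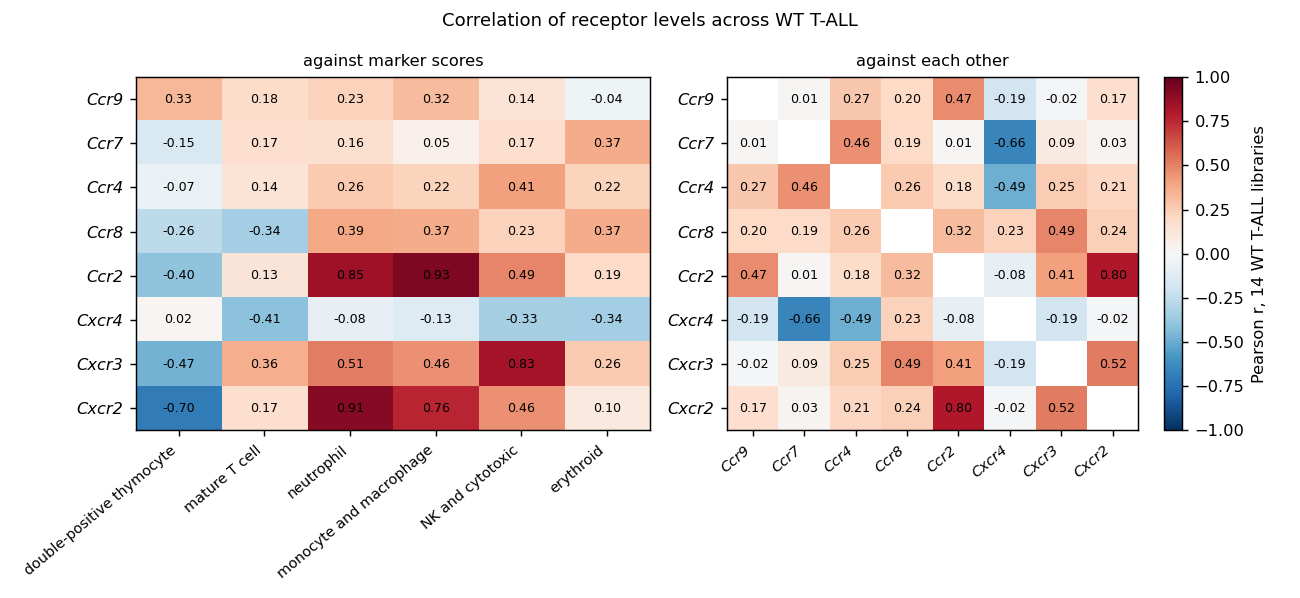
Pearson's r across the 14 WT T-ALL libraries between each receptor and 6 marker scores (left) and between the receptors (right), with the value printed in each cell. The cells of Ccr2 and Cxcr2 with the neutrophil score and the monocyte and macrophage score lie between 0.76 and 0.93, and Ccr9 has no value above 0.47.

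For each receptor the genes with the most similar pattern over the 14 WT T-ALL libraries were listed as a description, with points that share library and tissue makeup. They were picked as the highest among the genes tested between the tumor groups. Their r values are therefore high by selection, and none was tested. Ccr2 was closest to Serpine2 (r = 0.98), Rassf4 (0.97) and Pira6 (0.97), and Cxcr2 to Trem1, Il1f9 and C5ar1, each at 0.98. Without WT T-ALL 110 the Cxcr2 values were 0.90, 0.90 and 0.91. Trem1 and C5ar1 are receptors of myeloid cells. The nearest genes to Ccr9 were Sepw1 (0.83), Ptpn13 (0.79) and Smpd2 (0.74), and to Ccr7 Pgm1 (0.85), Flad1 (0.81) and Dcun1d4 (0.80). Ccr4 was nearest to Mob3a (0.84), Hsh2d (0.83) and the T-cell costimulator Icos (0.82), and Ccr8 to Tie1 (0.90), S1pr2 (0.85) and Gaa (0.84). Cxcr4 was nearest to Cand2, Hmga1 and Dcakd (0.84 each), and Cxcr3 to Scin (0.91), H2-DMa (0.86) and Susd2 (0.85). Without WT T-ALL 110 the Cxcr3 values were 0.86, 0.76 and 0.75.

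Among 16 other chemokine receptors, 9 were tested against thymus, and 6 were called in WT T-ALL, 4 higher and 2 lower, where 51.6% of all genes were called. The 4 higher genes were under a scaled RPKM of 1 in every thymus sample (highest log2 value 0.68, for Ccr1) and entered the test through the tumors in which they are high, so the counts are a description. Ackr1, an atypical receptor of red cells and venules, was higher by 1.68 (SE 0.37, adjusted p = 0.000731), the eosinophil receptor Ccr3 by 1.42 (SE 0.40, 0.00518), the myeloid receptor Ccr1 by 1.23 (SE 0.47, 0.0319) and Ccrl2 by 0.65 (SE 0.25, 0.0304). Cxcr6, a receptor of effector and innate-like T cells, fell by 1.46 (SE 0.27, adjusted p = 0.000127). Ccr6 was lower, with a difference of -0.76 (SE 0.13, adjusted p = 5.5e-05), but entered the test through thymus alone, since no tumor was above 0.25. Of the 9 genes 5 were called in Notch3 KO T-ALL, against 37.5% of all genes, with Ackr1 at 3.55, Ccr3 at 2.18 and Ccrl2 at 1.64 higher and Cxcr6 at -1.60 and Ccr6 at -0.80 lower (limma adjusted p 3.19e-05 to 0.00524). Of the 8 tested between the tumor groups 0 were called. The median difference of this list was 0.35 in WT T-ALL and 0.13 in Notch3 KO T-ALL, against 0.08 over all genes in each.

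Ccr9 and Ccr2 lie in 1 stretch of chromosome 9, from 123767211 at the start of Ccr9 to 124109140 at the end of Ccr2, with Cxcr6, Xcr1, Ccr1, Ccr1l1 and Ccr3 between them. Ccr9 and Cxcr6 were lower in WT T-ALL, and Ccr2 was not called. Ccr1 and Ccr3 were called higher, but entered the test only through the tumors in which they are high. Their direction is therefore a description. Xcr1 and Ccr1l1 did not pass the filter on low values.

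The ligands were mostly low. Of 20 ligand genes 8 were tested, and 2 were called in WT T-ALL and 3 in Notch3 KO T-ALL, where 51.6% and 37.5% of all genes were called. Ppbp and Cxcl12 had log2 values of at most 0.17 and 0.36 in thymus and entered the test through the tumors. In WT T-ALL Ppbp, a platelet chemokine for CXCR2, was higher by 3.09 (SE 0.53, adjusted p = 5.64e-05), and Ccl22, a ligand of CCR4, fell by 1.53 (SE 0.37, 0.00165). Notch3 KO tumors had Ppbp higher by 5.31 (SE 0.77, adjusted p = 2e-05), Ccl22 lower by a difference of -1.72 (SE 0.54, 0.0149) and Cxcl12, the ligand of CXCR4, higher by 1.49 (SE 0.33, 0.0013). Ccl25, the ligand of CCR9, was at similar levels in all groups, 2.01 ± 0.41 for thymus (SD, n = 6), 2.14 ± 0.43 for WT tumors (SD, n = 14) and 2.23 ± 0.40 for Notch3 KO tumors (SD, n = 3), and was not called. Ccl19 did not exceed 0.21 in thymus and 1.05 in WT T-ALL. Ccl21a, Ccl21b and Ccl21c are near-identical copies whose reads can be split, and none passed the filter. The median difference of the list was 0.29 in WT T-ALL and 0.19 in Notch3 KO T-ALL. Between the tumor groups 0 of 8 ligands were called.

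Genes that carry the receptor signal inside the cell were called about as often as all genes. Of 23 tested, 12 were called in WT T-ALL, where 51.6% of all genes were called, with 3 higher and 9 lower (29.3% and 22.3% of all genes). The median difference was -0.30, against 0.08 over all genes. Rgs14, a brake on G protein signaling, fell by 2.19 (SE 0.21, adjusted p = 2.34e-08), the migration factor Dock2 by 1.12 (SE 0.17, 9.46e-06) and the actin regulator Coro1a by 0.84 (SE 0.21, 0.00234). Rgs16 was lower, with a difference of -1.30 (SE 0.19, adjusted p = 7.79e-06), but passed the filter on low values through thymus, since it did not pass among the tumors alone. The arrestin Arrb1 rose by 0.65 (SE 0.24, adjusted p = 0.0257). The receptor kinase Adrbk2 was higher by 0.63 (SE 0.25, adjusted p = 0.0398) and Rgs18, a regulator of platelets and myeloid cells, by 1.40 (SE 0.41, 0.00669), but their log2 values were at most 0.81 and 0.98 in thymus, so both entered the test through the tumors. Notch3 KO T-ALL had 9 of 23 called, against 37.5% of all genes, and 7 of them lower, with Rgs14 at -2.38, Dock2 at -1.25, Pik3r5 at -1.13 and Rgs16 at -1.06, and with Arrb1 at 2.04 and Rgs18 at 1.63 higher (limma adjusted p 3.48e-06 to 0.0332). None of the 22 tested differed between the tumor groups by limma.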

How the data were processed

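RNA-seq of 23 mouse samples was analysed from the deposited table of 24475 genes. By the study's methods the authors used OSA, the aligner of ArrayStudio, to map stranded paired-end reads to mm10 transcripts, and quantified genes in ArrayStudio. The deposited values are on a log2 scale, read from the values themselves as log2(RPKM + 1), with every library scaled by the authors to the same upper quartile, 10 RPKM. The study gives an approximate number of reads per sample, but read totals of single libraries are not given in the sources used here. Date-converted symbols (27) were restored by gene ID. Genes reaching 1 scaled RPKM in 3 or more samples were tested with limma 3.58.1 in R 4.3.3 (trend and robust moderation, Benjamini-Hochberg over all genes tested, threshold 0.05). The comparisons with thymus came from 1 fit of all 3 groups (11919 genes) and the comparison of the tumors from a fit of the T-ALL samples (11677 genes). Correlations over the 14 WT T-ALL samples used permutation tests with 100000 resamples (scipy 1.17.1), adjusted within the 48 relations with scores and within the 28 pairs. The code was tested on simulated data.

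The 8 receptors, the lists (other receptors, ligands, receptor signaling and cell type markers) and the tests were chosen with earlier results of these data known. All 8 receptors are named in each comparison. Beside them are named the called genes among other receptors and ligands (at most 6 per list and comparison), the 4 largest called rises and falls of receptor signaling, and the 3 genes most like each receptor. The library sets, the averaging of the similar thymus samples and the fits without WT T-ALL 108 and 110 were chosen after seeing the data.

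Of the marker lists, numbers are genes called against thymus in WT and in Notch3 KO T-ALL, where 29.3% and 21.2% of all genes tested were called higher and 22.3% and 16.3% lower. T lineage had 3 and 3 of 7 lower, and double-positive thymocyte 10 and 10 of 10 lower. Mature T cell had 2 higher and 4 lower of 8, then 1 and 6. Regulatory T cell had 1 higher and 2 lower of 4 tested, then 0 and 2. Neutrophil had 10 and 3 of 10 higher, monocyte and macrophage 7 and 7 of 10 higher, and erythroid 7 and 7 of 7 higher. Dendritic cell had 2 and 2 of 4 tested higher, and NK and cytotoxic had 1 higher and 3 lower of 6 tested in both. B cell had 4 and 4 of 4 tested lower, and thymic epithelium 1 and 1 of 1 tested lower. Stroma and endothelium had 3 higher and 1 lower of 4 tested, then 3 and 0. These counts are a description, since some genes entered the test only through the group in which they are high. This held for most of the erythroid list, such as Klf1, through the tumors, and for most of the B cell genes tested, such as Ms4a1, through thymus. Between the tumor groups limma called 0 genes of these lists.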

Additional observations from a re-analysis of the deposited data

How the results depend on the processing

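Ccr7 was lower than in thymus under each alternative run, and its call in both tumor groups was lost only with the erythroid score as a covariate, where the difference was larger and its SE wider (-3.73, SE 1.18, adjusted p = 0.104 in WT T-ALL and -4.54, SE 1.71, 0.446 in Notch3 KO T-ALL). That covariate left 0 receptors called in either tumor group. Ccr8 was also larger, at -2.65 (0.113) and -2.69 (0.565), and Ccr9 smaller, at -3.85 (0.318) and -1.59 (0.911). The score does not overlap between the groups, at 0.27 to 0.58 in thymus and 3.19 to 6.51 in WT T-ALL. The covariate also turned Ccr2 to -0.461 and Cxcr4 to 0.319 for Notch3 KO T-ALL against thymus, and Ccr8 to -0.014 and Cxcr3 to -0.026 between the tumors. Against thymus, 5 calls in WT T-ALL became 2 within set A, where 5 of 8 receptors were tested and Ccr8 and Cxcr2 were not, 4 of 8 within set B, and 3 with similar thymus samples averaged (Cxcr3 then 0.007). The 3 calls in Notch3 KO T-ALL became 1 with the set as a covariate (Cxcr3 0.222) and 1 with thymus samples averaged (Cxcr3 0.051). Subtracting the T-lineage score turned Ccr4 to 0.042, Cxcr4 to 0.074 and Cxcr3 to 0.534 in WT T-ALL, and to 0.524, 0.32 and 0.71 in Notch3 KO T-ALL, and Cxcr2 between the tumors to 0.005. Genes called under that shift were 7146 higher and 586 lower in WT T-ALL, against 3493 and 2657 without it, and 6249 and 305 in Notch3 KO T-ALL, against 2527 and 1948. The myeloid scores as covariates turned Ccr2 to -1.121 and Cxcr2 to -0.616 in WT T-ALL, to -1.833 and -0.288 in Notch3 KO T-ALL, and Ccr7 to 0.331 and Cxcr2 to 0.295 between the tumors. The neutrophil score did not overlap between thymus (1.82 to 3.55) and WT T-ALL (4.07 to 10.47), so the fit against thymus extrapolates. Between the tumors the set as a covariate, and likewise set A alone, gave Ccr7 0.867, Ccr2 0.348, Cxcr4 -0.232 and Cxcr2 0.148. Without WT T-ALL 108 and 110 Ccr2 was 0.159 and Cxcr2 0.219. The causes were not tested.

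Leaving out 1 library at a time gave 4 to 5 calls in WT T-ALL, 1 to 4 in Notch3 KO T-ALL (1 when its library 3 was left out, 4 when WT T-ALL 110 was) and 0 between the tumors. Values that changed sign, all uncalled, ranged for Notch3 KO T-ALL against thymus from -0.606 to 0.14 (Ccr4), from -0.058 to 1.053 (Ccr2) and from -0.528 to 0.226 (Cxcr3). Between the tumors they ranged from -0.826 to 0.091 (Ccr7), from -0.04 to 0.707 (Ccr4), from -0.044 to 0.684 (Ccr8), from -0.695 to 0.417 (Ccr2), from -0.453 to 0.301 (Cxcr3) and from -0.632 to 0.446 (Cxcr2). Without WT T-ALL 110, 0 receptor pairs passed, against 1.

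The replicate block left 3 calls in WT T-ALL (Ccr2 -0.477) and 3 in Notch3 KO T-ALL. The numbers do not pair the samples. Correlations of same-numbered deviations were -0.235, 0.094 and 0.131 for WT T-ALL with thymus and 0.036, -0.028 and 0.151 for Notch3 KO T-ALL with thymus, and 1 of 3 samples was closest to its own number in each. Between the tumors 1 number is shared, and the block could not be fitted. Counts over the gene lists stayed within 1.5 times in 199 combinations of list, comparison and setting and moved further in 26. Depth per library is unknown, so counting error cannot be given.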

Other observations

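The following values were chosen after they were seen. WT T-ALL 110, the tumor with the highest Ccr2, Cxcr3 and Cxcr2, was also the highest WT T-ALL library for the myeloid receptor Ccr1 (log2 value 5.16, next 3.06). It had the highest values of the CXCR3 ligands Cxcl9 (6.53, median of the 14 tumors 0.47) and Cxcl10 (3.58, median 0.47) and of the CCR8 ligands Ccl1 (4.43, median 0.03) and Ccl8 (3.60, median 0.13). WT T-ALL 48 was next for all 4 of these ligands, at 4.05, 1.46, 3.30 and 0.91, and it had the second highest Cxcr3.

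The CCR4 ligands Ccl17 and Ccl22 were highest in WT T-ALL 48 (3.29 and 2.46) and next in WT T-ALL 202 (2.83 and 1.97). WT T-ALL 48 also had the highest Ccr4 of the WT T-ALL libraries, 4.80, and the lowest Cxcr4, 5.64. Each of these is 1 library and was not tested.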
